A study of Rattus norvegicus with 72 samples.

Results

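The dorsal vagal complex of the brainstem (DVC) was compared with the central amygdala (the central nucleus, CeA) in the same rats, killed 3 h after lights on (Zeitgeber time ZT3). The samples were chosen by their labels as all DVC and all CeA samples of that time point, 14 of the 72 samples in the series, and the 7 DVC samples and the 7 CeA samples came from the same 7 animals. All animals were young male Sprague Dawley rats that had never received alcohol and had no experimental treatment. From a body weight of 120 g they were fed a Lieber DeCarli liquid diet with maltose-dextrin in place of alcohol, freely for 3 days and from then on in an amount limited to the intake of matched alcohol-fed rats, so every sample came from a calorie-restricted animal. Both sides of a region were taken as size-matched micropunches and treated as 1 sample, without pooling of animals. Transcripts of 145 genes were measured by microfluidic quantitative PCR from 100 ng of total RNA per sample. The readout is the threshold cycle C_T, on a log2 scale: a C_T lower by 1 cycle means about 2-fold more transcript, and folds below assume a doubling at every cycle. Levels of different genes are not compared, because each assay has its own efficiency. Label and data could be checked only in part, because the panel holds few genes that belong to 1 of the regions.

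The DVC receives the sensory fibres of the vagus nerve in the nucleus of the solitary tract, sends motor fibres back to the viscera, and holds noradrenergic neurons. The CeA is the main output nucleus of the amygdala, is made up mostly of GABAergic neurons that resemble those of the striatum, and takes part in fear, stress and autonomic responses. The nuclei project to each other, and both use glutamate and GABA as fast transmitters together with peptides such as corticotropin-releasing factor (CRF). The genes of the panel act at successive steps of neuronal signalling: receptors and channels at the membrane, G proteins and their regulators, phospholipases and kinases, and transcription factors.

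The primers of 5 assays that separated the regions far, with that of the noradrenaline transporter Slc6a2, are printed here because they define which transcript was counted. All are written 5′ to 3′ in lower case, with nothing marked in capitals.
Slc6a2 forward: ctgtcctgttcttcctgatgc
Slc6a2 reverse: gtgatgactgcctccatgc
Gabrq forward: catatgatgtccgactgagacc
Gabrq reverse: gatagatattgacacaggcacagg
Aldh1a1 forward: gccatcactgtgtcttctgc
Aldh1a1 reverse: catcttgaatccaccgaagg
Ptk2b forward: caatctgctggctcctaagc
Ptk2b reverse: taggagagctggcacacaga
Gabrd forward: ggacgagcaggagtgcat
Gabrd reverse: gctcctggttttctgaccaa
Rgs14 forward: cctggtgggcaaagaaca
Rgs14 reverse: ccagtcgcacttcctggt

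Before normalization the CeA samples had later C_T values than the DVC samples. The median C_T over genes ran from 17.9 to 20.5 in the DVC samples and from 18.7 to 20.8 in the CeA samples. Within animals it was higher in the CeA by 0.911 cycles (SD 0.673, n = 7), in 6 of 7 animals (exact two-sided sign-flip permutation test, p = 0.03125). Failed reactions, which have no C_T, numbered 15 of 1015 in the DVC and 33 of 1015 in the CeA. The authors' quantile normalization gives every sample the same distribution of values and so removes this shift, and all differences below are relative to it. Without normalization the median gene was later by 1.09 cycles in the CeA, against 0.17 cycles after it. A region difference in total transcript per input RNA and a technical shift cannot be told apart here. In tissue punches, fewer cells of a type and less transcript per cell cannot be told apart either.

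**Figure D1:**
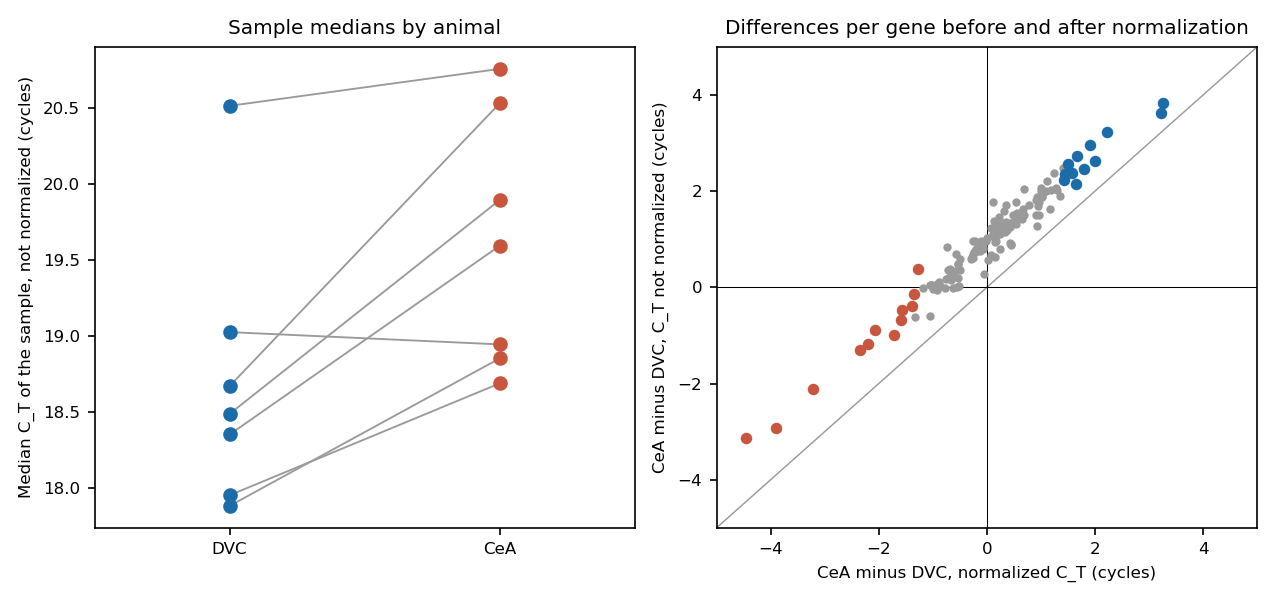
Left, median C_T over genes of each sample before normalization (cycles), DVC in blue and CeA in red, with lines joining the samples of 1 animal; the median is higher in the CeA in 6 of 7 animals. Right, CeA minus DVC per gene after normalization (horizontal, cycles) against the same difference before it (vertical, cycles), with the diagonal of equal values; blue and red mark the 12 genes furthest higher in DVC and in CeA, and nearly all genes lie above the diagonal.

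Genes with a value in both regions of at least 3 animals were tested, which left out 3 of the 145. Of those tested, 80 differed between DVC and CeA at ZT3 (limma with the animal as a block, Benjamini-Hochberg adjusted p of at most 0.05), or 56.3%. Transcripts of 44 genes were higher in DVC (31.0%) and of 36 higher in CeA (25.4%). The difference reached 1 cycle, or 2-fold, in 43 genes (30.3%), 25 of them higher in DVC and 18 higher in CeA. It reached 2 cycles in 10 genes and 3 cycles in 5. The median size of the difference was 0.63 cycles over all tested genes and 1.02 cycles over the 80. All animals measured had the same direction for 62 of the 80 genes. The ranges of the 2 regions did not overlap for 36 genes (25.4%), 24 higher in DVC and 12 higher in CeA. Leaving out any single animal left 72 to 80 genes past the threshold. Of the 80 genes, 11 lost the call without at least 1 animal, and none of the 24 genes with the furthest differences was among them. Of the others, 68 could be tested without each animal and kept the call. Slc6a12 could not be tested without any 1 of its 3 animals.

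**Figure D2:**
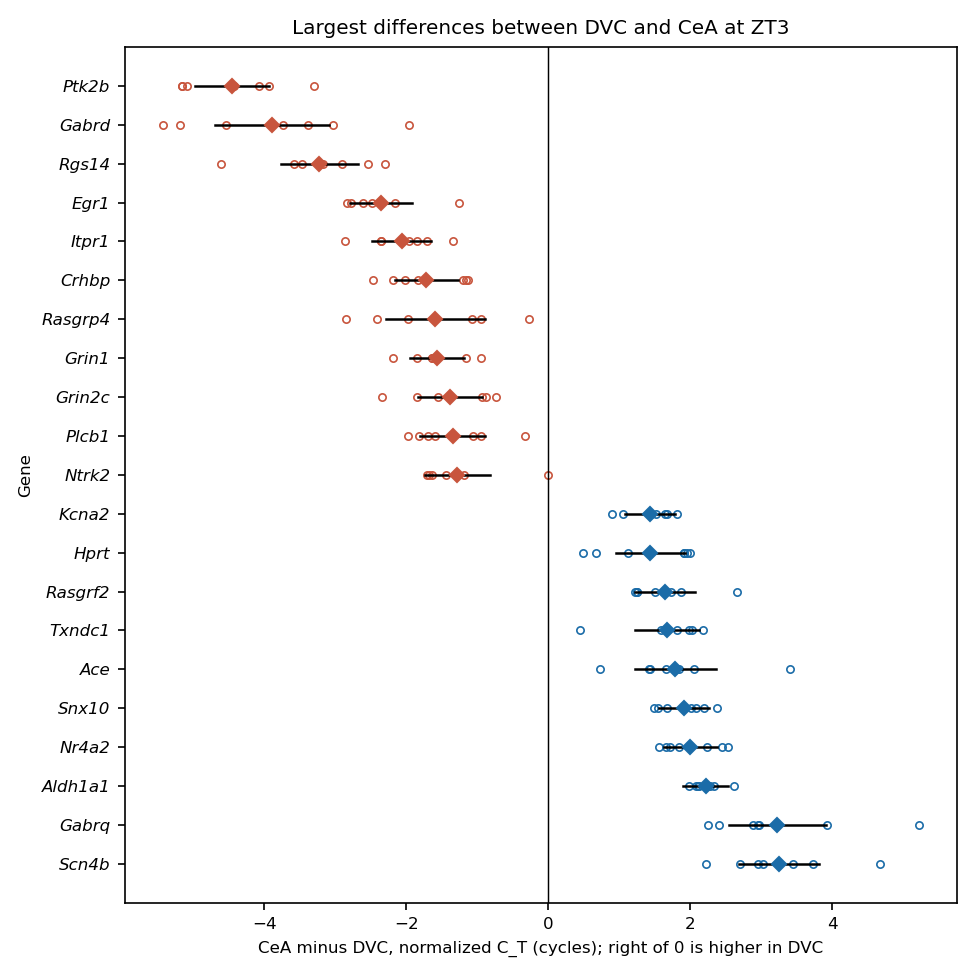
CeA minus DVC in normalized C_T (cycles) for 11 of the 12 genes furthest higher in CeA (red, left of 0) and 10 of the 12 furthest higher in DVC (blue, right of 0) at ZT3. Open circles are single animals, diamonds the mean and black bars its 95% interval from limma; no animal lies on the other side of 0, and for Ntrk2 1 animal lies almost at 0.

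Slc6a2, which takes noradrenaline back up into noradrenergic neurons, was the gene detected in only 1 of the regions. It had a C_T in 7 of 7 DVC samples, with a lowest value of 20.9, a median of 21.4 and a highest of 23.0 normalized cycles, and in 0 of 7 CeA samples (exact two-sided sign-flip permutation test over animals, p = 0.015625, the smallest that 7 animals can give). No fold is given, since the CeA has no value. At the other time points, in other animals, it had a value in 16 of 17 DVC and 1 of 13 CeA samples at ZT5, and in 15 of 15 DVC and 0 of 11 CeA samples at ZT9. Agtr2, the angiotensin type 2 receptor, had a value in 6 of 7 DVC and 2 of 7 CeA samples at ZT3. The DVC values were 24.3 to 25.5 cycles, and both CeA values were at 27.1 cycles, the highest value that the normalization gives to any sample. Fosl1, a partner of Jun in the AP-1 transcription factor, had a value in 5 of 7 DVC and 2 of 7 CeA samples, with DVC values from 24.3 to 27.1 and CeA values from 25.8 to 26.2 cycles. With 7 animals the detection of Agtr2 (exact permutation p = 0.125) and of Fosl1 (exact permutation p = 0.25) did not pass the threshold.

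Other markers of the cells in each region gave mixed directions. Of the 3 genes listed for striatum-like neurons, Rgs14 was higher in CeA, whereas Scn4b and Rgs9 were higher in DVC. Rgs9, which ends G-protein signals in striatal neurons, had a lowest, median and highest C_T of 18.1, 18.5 and 18.6 in DVC against 18.9, 19.2 and 19.9 in CeA, so that the regions did not overlap, and was higher in DVC by 0.92 cycles (95% interval 0.53 to 1.31, limma adjusted p = 0.00107). Of the genes of GABA neurons, Gad1, which makes GABA, was lower in C_T in CeA by 0.25 cycles (limma adjusted p = 0.327) and the vesicular transporter Slc32a1 by 0.05 (limma adjusted p = 0.83), and neither passed the test. Of 4 genes with high expression in glia, Clu, Gabrg1 and Plcg2 did not pass. Ptgs1, a cyclooxygenase found in microglia, was higher in CeA by 0.66 cycles (95% interval 0.32 to 1.002, limma adjusted p = 0.00355). With median centring Slc32a1 passed, higher in CeA by 0.57 cycles (limma adjusted p = 0.0204). Without normalization, Gad1 and Slc32a1 did not become significant, Clu, Gabrg1 and Plcg2 were higher in DVC, and the direction of Ptgs1 turned (0.16 cycles toward DVC, limma adjusted p = 0.674). The share of these cell types in the punches was not tested.

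Of 5 ion channel genes 4 were higher in DVC, against 31.0% of all tested genes, and the median difference was 1.11 cycles toward DVC against 0.17 over all genes. Scn4b, an auxiliary subunit of voltage-gated sodium channels tied to their resurgent current, was the gene furthest higher in DVC. Its C_T had a lowest, median and highest value of 19.2, 19.5 and 20.1 in DVC and of 21.9, 22.9 and 23.8 in CeA. The regions lay apart in all 7 animals, by 3.25 cycles on average (95% interval 2.69 to 3.81, limma adjusted p = 1.65e-06), or 9.54-fold. Kcna2, the potassium channel Kv1.2 of axons, was at 18.6, 18.7 and 19.5 in DVC and at 19.9, 20.4 and 20.6 in CeA. It was higher in DVC by 1.43 cycles (95% interval 1.08 to 1.79, limma adjusted p = 1.94e-05), with no overlap.

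GABA-A receptor subunits included the gene pair with the widest opposite differences within a family. Each receptor is a ring of subunits, and the delta subunit marks receptors outside the synapse that carry tonic inhibition. Gabrd, which encodes delta, had a lowest, median and highest C_T of 23.8, 25.5 and 27.1 in DVC and of 21.1, 21.7 and 22.2 in CeA. Every animal had more Gabrd transcript in CeA, by 3.90 cycles (95% interval 3.09 to 4.70, limma adjusted p = 4.85e-06) or 14.9-fold, and 1 DVC value stood at the highest value the normalization gives. Gabrq, which encodes the rarer theta subunit, was at 21.9, 22.1 and 24.0 in DVC and at 24.5, 25.0 and 27.1 in CeA. It was higher in DVC in every animal, by 3.23 cycles (95% interval 2.54 to 3.92, limma adjusted p = 6.01e-06) or 9.39-fold, and again no samples of the 2 regions overlapped. Gabrr2, a rho subunit of slow GABA receptors, was higher in CeA by 1.02 cycles over the 3 animals with both values (limma adjusted p = 0.0412). Once any of those 3 animals was left out, it could not be tested. In animals 2 and 5, both among the 3, the DVC value stood at the highest value the normalization gives. The call was also lost without animal 6, which has no CeA value, with the difference unchanged at 1.02 cycles (limma adjusted p = 0.0513). In all, 6 of 9 subunits passed, 3 in each direction, close to the 56.3% of all tested genes. Their median was 0.23 cycles toward DVC, against 0.17 over all genes. Between 4 and 6 subunits passed when single animals were left out. With median centring 4 were higher in DVC and 1 in CeA, and without normalization 6 and 1. Among genes for synthesis and transport of GABA, Slc6a12, a betaine and GABA transporter, was higher in DVC by 1.25 cycles over 3 animals (95% interval 0.48 to 2.02, limma adjusted p = 0.0134). Slc6a12 could not be tested once any of its 3 animals was left out.

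**Figure D3:**
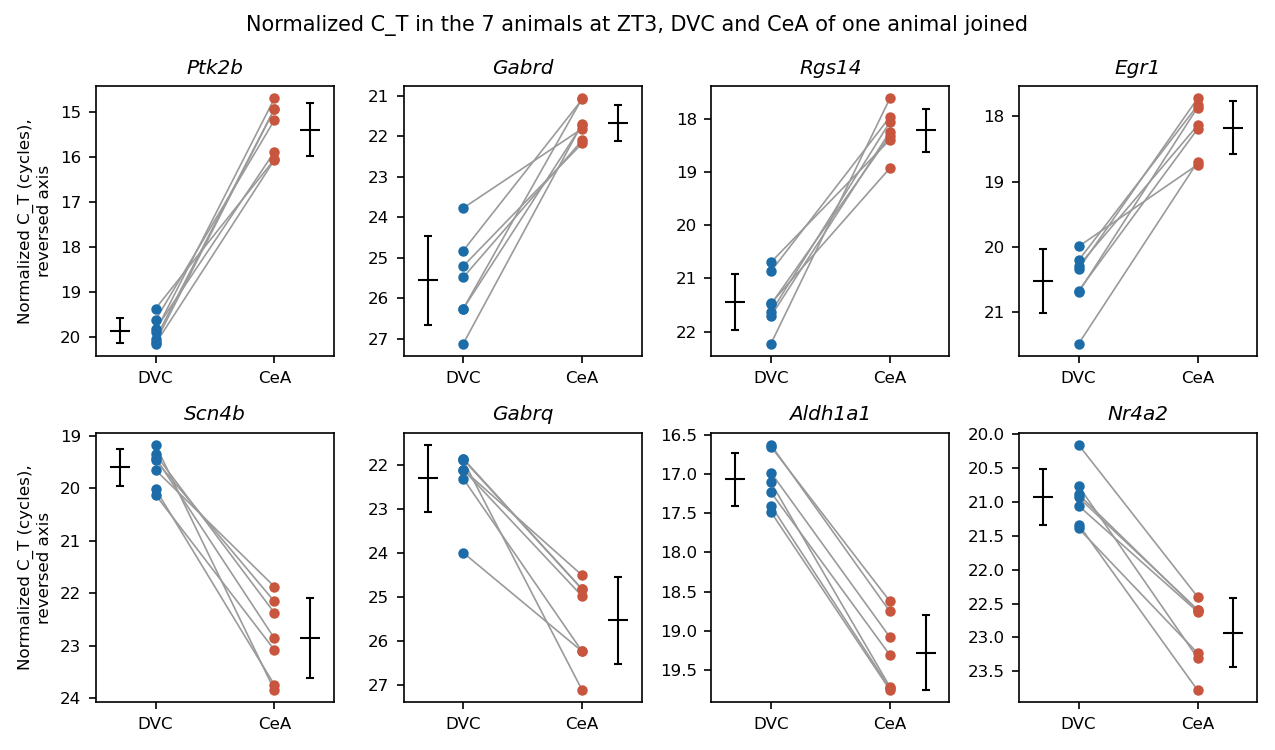
Normalized C_T of 8 genes in the 7 animals at ZT3 (vertical, cycles, reversed so that higher expression is up), with DVC in blue, CeA in red and the samples of 1 animal joined; black bars are the mean and SD of 7 samples. Ptk2b, Gabrd, Rgs14 and Egr1 are higher in CeA and Scn4b, Gabrq, Aldh1a1 and Nr4a2 higher in DVC, with no overlap in any panel.

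Ionotropic glutamate receptor subunits all passed the test: 9 of 9, 6 higher in CeA and 3 higher in DVC, against 56.3% of all tested genes, and 7 to 9 passed when single animals were left out. Grin2b, which entered the list after its values were seen, lost its call without animal 1, 2, 3, 5 or 7 (limma adjusted p up to 0.11). The list median was 0.72 cycles toward CeA, and turned to 0.20 cycles toward DVC without normalization, where 3 members were higher in DVC and 0 higher in CeA. Grin1, the subunit that every NMDA receptor needs, had a lowest, median and highest C_T of 18.7, 19.0 and 19.3 in DVC and of 17.1, 17.4 and 17.8 in CeA. The mean difference was 1.57 cycles toward CeA (95% interval 1.19 to 1.95, limma adjusted p = 1.80e-05) in all 7 animals, without overlap. Grin2c, an NMDA subunit that weakens the magnesium block, was at 19.7, 20.3 and 21.0 in DVC and at 18.2, 19.1 and 19.2 in CeA. In CeA it was higher by 1.39 cycles (95% interval 0.93 to 1.84, limma adjusted p = 0.000193). The partners Grin2a and Grin2d went the other way. Grin2a was higher in DVC by 0.94 cycles, in 5 of 7 animals (limma adjusted p = 0.0135), and its call was lost without animal 2 (0.97 cycles, limma adjusted p = 0.0515). Grin2d was higher in DVC by 0.69 cycles, in 6 of 7 animals (95% interval 0.31 to 1.07, limma adjusted p = 0.00549). Both genes of metabotropic glutamate signalling were higher in CeA: the receptor Grm5 by 0.92 cycles (95% interval 0.53 to 1.32, limma adjusted p = 0.00107) and Homer2, which tethers it at the synapse, by 0.76 (95% interval 0.40 to 1.11, limma adjusted p = 0.00202). Without normalization neither differed significantly, and both differences turned toward DVC.

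Genes of CRF and angiotensin signalling differed in both directions. Crhbp, which binds CRF and keeps it from its receptors, had a lowest, median and highest C_T of 23.5, 24.3 and 24.7 in DVC and of 21.8, 22.3 and 23.5 in CeA. The ranges touched, but Crhbp was higher in CeA within every animal, by 1.72 cycles (95% interval 1.28 to 2.16, limma adjusted p = 2.46e-05). Crhr2, a CRF and urocortin receptor, was at 23.2, 25.2 and 25.8 in DVC and at 25.0, 25.8 and 27.1 in CeA. It was higher in DVC by 1.35 cycles (95% interval 0.44 to 2.25, limma adjusted p = 0.0149), but 4 of 7 animals alone had this direction, and the call was lost without animal 2 (limma adjusted p = 0.0829) or animal 6 (limma adjusted p = 0.0562). The CeA values of animals 2, 3 and 6, all among those 4, stood at 27.1, the highest value the normalization gives. The size of the Crhr2 difference is therefore uncertain. Of the renin-angiotensin genes 3 of 4 tested were higher in DVC, against 31.0% of all tested genes, and 0 in CeA, against 25.4%. Their median was 1.16 cycles toward DVC, against 0.17 over all genes. With median centring of the samples, or within each inferred set of assays, 3 were higher in DVC and 1 in CeA. Ace, the enzyme that makes angiotensin II, was at 19.4, 19.8 and 20.3 in DVC and at 20.8, 21.2 and 23.2 in CeA, 1.79 cycles apart (95% interval 1.22 to 2.37, limma adjusted p = 0.000165). Agtrap, a protein that binds the type 1 angiotensin receptor and promotes its uptake, was at 20.7, 21.3 and 21.8 in DVC and at 22.2, 22.5 and 23.1 in CeA. DVC exceeded CeA by 1.29 cycles (95% interval 0.84 to 1.73, limma adjusted p = 0.000256), and neither gene overlapped between regions.

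Of 5 other receptors, 4 passed, 2 in each direction, against 56.3% of all tested genes. Without normalization 3 were higher in DVC and 0 in CeA. Oprm1, the mu opioid receptor, was higher in DVC by 1.17 cycles (95% interval 0.71 to 1.63, limma adjusted p = 0.000633). P2rx4, an ATP-gated channel, was higher in DVC by 0.96 cycles (95% interval 0.48 to 1.44, limma adjusted p = 0.00312), with single animals from 0.03 to 2.04. Ntrk2, the receptor for brain-derived neurotrophic factor, was at 14.3, 15.1 and 16.04 in DVC and at 13.5, 13.5 and 14.7 in CeA. The mean difference was 1.28 cycles toward CeA (95% interval 0.82 to 1.74, limma adjusted p = 0.000338), with overlapping ranges, and its direction turned without normalization. Cckbr, the cholecystokinin B receptor, was higher in CeA by 0.92 cycles (95% interval 0.44 to 1.39, limma adjusted p = 0.00374). It lost the call in the fit without the animal as a block (limma adjusted p = 0.0602).

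Regulators of G-protein signalling (Rgs), which speed the return of G proteins to their resting state, passed in 6 of 9 cases, close to the 56.3% of all tested genes, and in 5 to 7 when single animals were left out. Of the 6, 4 were higher in DVC and 2 higher in CeA, with a median of 0.92 cycles toward DVC. Rgs14, which also binds Ras and Raf, was the exception in size: its lowest, median and highest C_T were 20.7, 21.5 and 22.2 in DVC and 17.6, 18.2 and 18.9 in CeA. In CeA it was higher by 3.23 cycles (95% interval 2.68 to 3.77, limma adjusted p = 1.65e-06) or 9.36-fold, with no overlap. Rgs6, at 17.9, 18.6 and 18.8 in DVC and 18.9, 19.8 and 20.9 in CeA, was higher in DVC by 1.40 cycles over 6 animals (95% interval 0.72 to 2.08, limma adjusted p = 0.00281). Rgs7 was higher in DVC by 1.01 cycles (95% interval 0.66 to 1.37, limma adjusted p = 0.000281). Both belong, with Rgs9, to the subfamily that pairs with the G protein beta 5 subunit. Rgs2, which acts on Gq, was higher in CeA by 0.57 cycles in 5 of 7 animals (limma adjusted p = 0.0424). That call was lost without animal 2, 3, 6 or 7 (limma adjusted p from 0.0646 to 0.123), and its direction turned without normalization. Of the 4 receptor kinases and arrestins, which silence active receptors, 0 passed.

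The G protein Gq acts through phospholipase C and IP3 to release calcium and activate protein kinase C. Of 6 phospholipases and IP3 receptors, 3 were higher in CeA and 0 in DVC, and of 9 protein kinase C genes 4 were higher in CeA and 0 in DVC, against 25.4% of all tested genes higher in CeA. Among the 3, Plcb2 lost its call without animal 1, 2, 6 or 7 (limma adjusted p from 0.0667 to 0.107). The medians were 0.54 and 0.26 cycles toward CeA, and turned to 0.25 and 0.58 cycles toward DVC without normalization. There, 2 and 4 members were higher in DVC, and 1 member of each list was still higher in CeA. Plcb1, the phospholipase that Gq activates, was at 16.8, 17.3 and 18.2 in DVC and at 15.4, 15.9 and 16.9 in CeA. It was higher in CeA by 1.35 cycles (95% interval 0.89 to 1.81, limma adjusted p = 0.000239), with overlap between animals. Without normalization the difference was 0.14 cycles and did not pass (limma adjusted p = 0.733). Itpr1, the channel through which IP3 releases calcium from the endoplasmic reticulum, was at 20.2, 20.5 and 21.3 in DVC and at 18.1, 18.6 and 19.6 in CeA. CeA exceeded DVC by 2.07 cycles (95% interval 1.65 to 2.48, limma adjusted p = 4.55e-06) or 4.19-fold, with no overlap.

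Ptk2b, the calcium-activated tyrosine kinase Pyk2, had the largest difference of all genes tested. Its C_T had a lowest, median and highest value of 19.4, 19.9 and 20.1 in DVC and of 14.7, 15.2 and 16.1 in CeA. In CeA it was higher by 4.45 cycles (95% interval 3.93 to 4.98, limma adjusted p = 1.04e-07) or 21.9-fold, and the smallest difference in any animal was 3.31 cycles. Ptk2b, Gabrd and Rgs14 remained higher in CeA without normalization, by 3.13, 2.94 and 2.11 cycles (limma adjusted p of 2.72e-11, 1.60e-09 and 3.38e-07). Of the 12 genes furthest higher in CeA, 7 passed in that direction without normalization, and all 12 genes furthest higher in DVC did. Those that did not were Grin1, Grin2c, Rasgrp4, Plcb1 and Ntrk2.

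Ras regulators passed in 5 of 7 cases, 3 higher in CeA and 2 higher in DVC, against 56.3% of all tested genes. Without normalization 3 were higher in DVC and 0 in CeA. Rasgrf2, a calcium-regulated activator of Ras, was at 21.5, 21.7 and 22.2 in DVC and at 22.8, 23.4 and 24.8 in CeA, higher in DVC by 1.64 cycles (95% interval 1.22 to 2.07, limma adjusted p = 2.50e-05), with no overlap. Rasgrp4, another Ras activator, was at 22.9, 23.7 and 24.0 in DVC and at 20.9, 22.3 and 24.1 in CeA. Despite that overlap it was higher in CeA in all 6 animals with both values, by 1.59 cycles (95% interval 0.89 to 2.29, limma adjusted p = 0.00159). Of the Ras inhibitors, Rasa1 was higher in DVC by 0.60 cycles (limma adjusted p = 0.0149) and Rasa2 higher in CeA by 0.78 (limma adjusted p = 0.0232). The call on Rasa2 was lost without animal 3, 4 or 6 (limma adjusted p from 0.058 to 0.0711).

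Of 9 Raf and MAP kinase genes 3 passed, against 56.3% of all tested genes. The kinase Araf was higher in DVC by 0.68 cycles (limma adjusted p = 0.00513), and Dusp6, a phosphatase of ERK, was higher in CeA by 0.59 cycles (limma adjusted p = 0.00699), with a direction that turned without normalization. Of 5 genes of the PI3 kinase pathway 3 passed. Pik3r3, a regulatory subunit, was higher in DVC by 0.90 cycles (95% interval 0.53 to 1.27, limma adjusted p = 0.000859) without overlap, and Pdpk1, which activates Akt, was higher in CeA by 0.73 cycles (limma adjusted p = 0.00639). Without normalization Pdpk1 was higher in DVC, by 0.85 cycles (limma adjusted p = 0.0127), and with median centring it did not pass (limma adjusted p = 0.767). Of 7 phosphatases, Ppp5c was higher in DVC by 0.53 cycles (limma adjusted p = 0.018; lost without animal 3 or 5, limma adjusted p of 0.0508 and 0.0589) and Ptpn1 higher in CeA by 0.72 (limma adjusted p = 0.00327), a direction that also turned without normalization. Of 3 Pak kinases 0 passed.

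**Figure D4:**
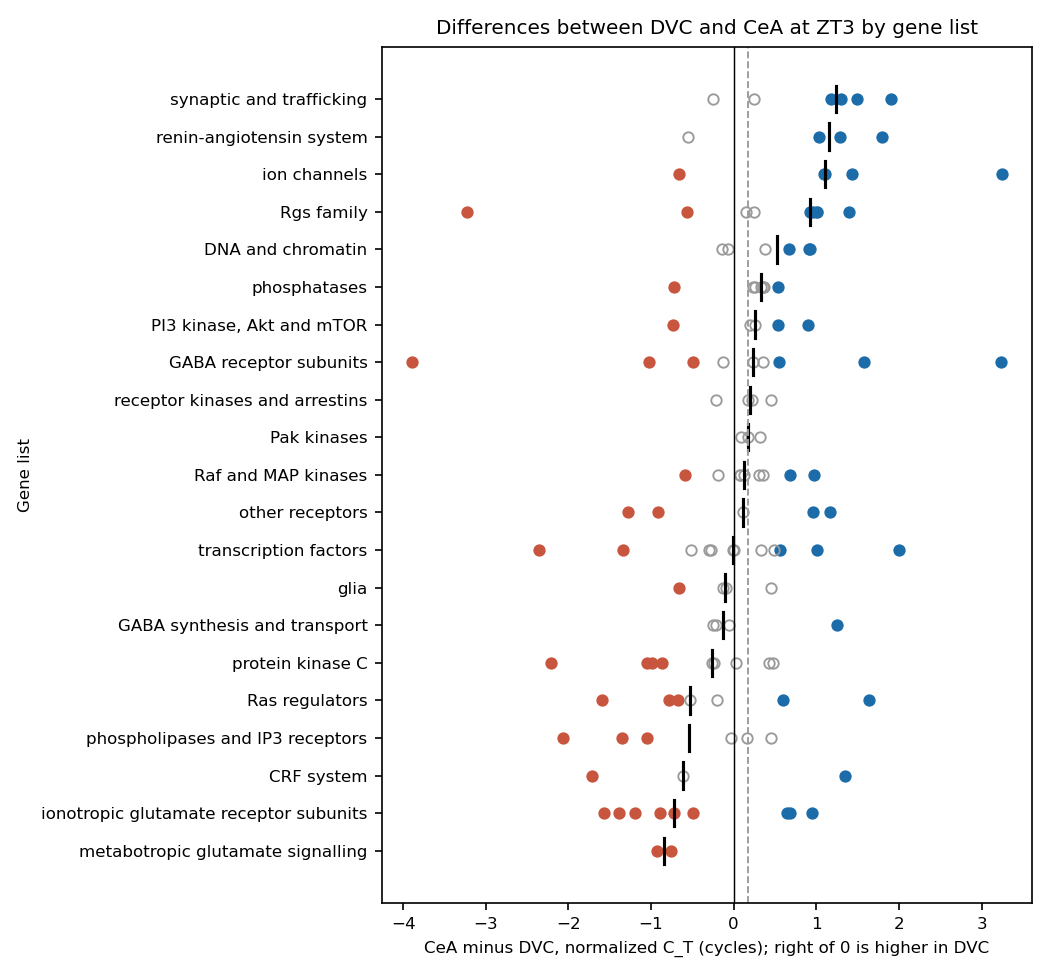
CeA minus DVC in normalized C_T (cycles) of every tested gene in 21 gene lists, with left of 0 higher in CeA and right of 0 higher in DVC. Filled circles passed the limma test at an adjusted p of at most 0.05, open circles did not, black bars are list medians and the dashed line is the median of all genes tested, 0.17; synaptic, renin-angiotensin and ion channel genes have the medians furthest to the right and glutamate receptors those furthest to the left.

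Transcription factors passed in 5 of 12 cases, 3 higher in DVC and 2 higher in CeA, below the 56.3% of all genes tested. Egr1, an immediate early gene that neurons switch on when they are active, was at 20.0, 20.3 and 21.5 in DVC and at 17.7, 18.1 and 18.7 in CeA. It was higher in CeA by 2.36 cycles (95% interval 1.92 to 2.79, limma adjusted p = 2.28e-06) or 5.12-fold, with no overlap. Nr4a2, the nuclear receptor Nurr1, was at 20.2, 20.9 and 21.4 in DVC and at 22.4, 22.6 and 23.8 in CeA. DVC exceeded CeA by 2.001 cycles (95% interval 1.63 to 2.38, limma adjusted p = 2.28e-06), with single animals from 1.57 to 2.54. The AP-1 factors Jun and Junb went opposite ways: Jun was higher in DVC by 1.01 cycles (95% interval 0.62 to 1.40, limma adjusted p = 0.000564) and Junb higher in CeA by 1.33 cycles in 5 of 6 animals (95% interval 0.50 to 2.17, limma adjusted p = 0.0116). Of 6 genes that act on DNA and chromatin 3 passed, against 56.3% of all tested genes, and all 3 were higher in DVC. Mbd1, which binds methylated DNA, was higher by 0.92 cycles (limma adjusted p = 0.00513) and the telomere protein Terf1 by 0.91 (limma adjusted p = 0.00227). With median centring within each inferred set of assays, 2 members of this list were higher in DVC and 1 in CeA.

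Of 6 synaptic and trafficking genes, 4 were higher in DVC, against 31.0% of all tested genes, and 0 in CeA, with the highest list median, 1.24 cycles. Snx10, a sorting nexin of endosomes, was at 15.7, 16.1 and 16.5 in DVC and at 17.7, 18.02 and 18.5 in CeA. In DVC it was higher by 1.91 cycles (95% interval 1.55 to 2.26, limma adjusted p = 2.28e-06) or 3.75-fold, with no overlap.

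Among the 12 genes furthest higher in DVC, 3 belonged to none of the lists. Aldh1a1, which makes retinoic acid and clears reactive aldehydes, was at 16.6, 17.1 and 17.5 in DVC and at 18.6, 19.3 and 19.8 in CeA. It was higher in DVC by 2.22 cycles (95% interval 1.90 to 2.53, limma adjusted p = 4.01e-07) or 4.65-fold, and single animals lay close together, from 1.98 to 2.61 cycles. Txndc1, a thioredoxin domain protein, was at 16.8, 16.98 and 17.6 in DVC and at 18.01, 18.7 and 19.4 in CeA, higher in DVC by 1.67 cycles (95% interval 1.22 to 2.12, limma adjusted p = 3.71e-05). Hprt, a purine salvage enzyme often used as a reference gene in quantitative PCR, was at 13.4, 14.3 and 14.7 in DVC and at 14.9, 15.4 and 16.2 in CeA. DVC exceeded CeA by 1.44 cycles (95% interval 0.95 to 1.93, limma adjusted p = 0.000239), a larger difference than that of 122 of the other genes tested.

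Some genes were measured precisely enough to bound their difference. For 12 genes the 95% interval lay within 0.5 cycles of 0. Those with the narrowest intervals were Dnmt3a, a DNA methyltransferase (0.06 cycles toward CeA, interval from 0.23 toward DVC to 0.36 toward CeA), the kinase Map2k1 (0.08 toward DVC, interval -0.23 to 0.40), the mitochondrial protein Ndufa5 (0.12 toward DVC, interval -0.19 to 0.44), the GABA-A subunit Gabrg1 (0.12 toward CeA, interval from 0.19 toward DVC to 0.44 toward CeA) and the secreted chaperone Clu (0.10 toward CeA, interval from 0.24 toward DVC to 0.44 toward CeA). These bounds hold after normalization only: without it Clu, Dnmt3a, Gabrg1, Map2k1 and Ndufa5 were higher in DVC by 0.89, 0.80, 0.85, 1.23 and 1.39 cycles. Clu lies at the low end of all C_T values, where the normalization gives samples nearly equal values.

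The same comparison at ZT5 (13 animals with both regions) and ZT9 (12 animals) was made to see whether the ZT3 differences recurred at other hours. There, 72 of 143 genes differed between regions at each time (50.3% at ZT5 and 50.3% at ZT9). Of the 80 genes called at ZT3, 60 were called in the same direction at ZT5 and 60 at ZT9, 50 at both, and 0 in the opposite direction at either. All 24 leading genes had the same direction at both times, 24 were called at ZT5 and 23 at ZT9. Over the genes tested at all 3 times the differences at ZT3 correlated with those at ZT5 with r = 0.945 and with those at ZT9 with r = 0.925, a description across genes that are no independent replicates and were normalized together. Ptk2b was higher in CeA by 4.45 cycles at ZT3, 4.56 at ZT5 and 4.51 at ZT9. Gabrq was higher in DVC by 3.23, 2.95 and 3.38 cycles.

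No gene passed a test of the difference between times. With limma on the within-animal differences, 0 genes differed between ZT3 and ZT5 (0.00%; 5 at an unadjusted p of at most 0.05, smallest adjusted p = 0.126) and 0 between ZT3 and ZT9 (0.00%; 10 unadjusted, smallest adjusted p = 0.444). The fit over samples without the animal block also gave 0 at both times. The 4 genes with the smallest p are named for their values. Clu was higher in CeA by 0.10 cycles at ZT3, by 1.21 at ZT5 and by 0.08 at ZT9. Its ZT3 and ZT5 values differed by 1.12 cycles (limma adjusted p = 0.126). Hprt was higher in DVC by 1.44, 0.58 and 1.02 cycles at ZT3, ZT5 and ZT9 (limma adjusted p = 0.412 against ZT5). Ntrk2 was higher in CeA by 1.28, 0.92 and 0.28 cycles (limma adjusted p = 0.444 against ZT9). Adrbk1, a kinase that desensitizes receptors, was 0.18 cycles toward DVC at ZT3, 0.23 toward CeA at ZT5 and 0.71 toward CeA at ZT9 (limma adjusted p = 0.444 against ZT9).

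**Figure D5:**
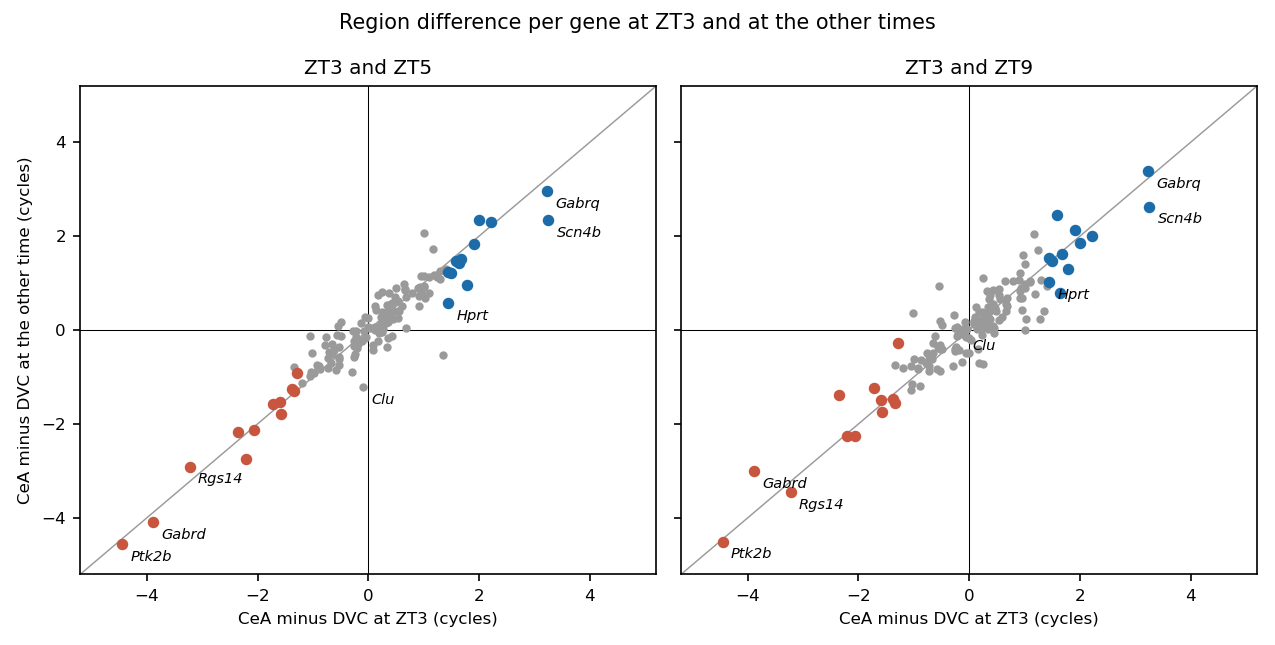
CeA minus DVC in normalized C_T (cycles) per gene at ZT3 (horizontal) against ZT5 (left, vertical) and ZT9 (right, vertical), for the genes tested at all 3 times, with the diagonal of equal values; blue and red mark the 12 genes furthest higher in DVC and in CeA at ZT3. All 24 lie on the same side of 0 at each time, and Clu lies off the diagonal at ZT5.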

How the data were processed

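RNA of 14 micropunch samples was measured by BioMark microfluidic qRT-PCR (14 preamplification and 40 PCR cycles). The authors deposited C_T values as exported and after quantile normalization, both on a log2 scale. Run on all 72 samples, limma 3.58.1 in R 4.3.3 gave back those normalized values with a largest deviation of 4.99e-09 cycles. Their file of mean differences between times was not used. Samples were paired by the animal number in the column names. Because the same animal gave both regions, the animal was a block in the limma model. Correlations of same-animal deviations ran from -0.009 to 0.315, and the highest with another animal from 0.156 to 0.267, above the same-animal value in 5 of 7. A single correlation was set here against the highest of several. The comparison therefore cannot show whether samples of the same animal were more alike. Failed reactions stayed missing, and genes needed 3 animals with both regions. Benjamini-Hochberg adjustment covered all genes tested. The limma p-values rest on the spread between the animals with both regions, 3 to 7 per gene. In them the spread of each gene is moderated toward that of all genes. C_T values hold no read depth, so the number of animals limits the precision.

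The genes named were the 12 called in each direction with the largest difference and one sign in every animal (at least 5 measured), those detected mainly in 1 region, fixed markers, up to 2 per list and direction, 5 with narrow intervals near 0, and 4 with the smallest p between times. Some genes that this rule names are not reported here. Members and lists were chosen with earlier results of these data known. Grin2b and 1 other gene entered their lists after the values were seen. Primers, given for all but 3 of the 145 genes, came from the study's primer table, and 144 identifiers were found in RefSeq (GRCr8). Kcna2 was listed under a corrupted symbol and matched by identifier. The RNA kit of each sample is not given in the sources used here. Figures used Python 3.11.15 and matplotlib 3.10.9. Alternatives were other normalizations, filters, tests and omission of each animal; the code was tested on simulated data.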

Additional observations from a re-analysis of the deposited data

Results flagged for a closer look

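Among the groups of samples tested (each named gene in each region, and the sample medians), 11 held a sample that stood far from the other samples of its group by Dixon's test; chance alone flags about 1 in 20 groups, which comes to 6.05 here. Of these samples 7 belonged to animal 7, 3 to animal 6 and 1 to animal 2. In the DVC of animal 7 the normalized C_T was 24.0 for Gabrq (the others 21.9 to 22.3), 19.5 for Kcna2 (18.6 to 19.0), 15.0 for Ndufa5 (15.6 to 16), 22.8 for Plcg2 (23.5 to 23.9) and 21.8 for Rasa2 (22.5 to 23.0). In the CeA of animal 7 it was 20.2 for Grm5 (18.4 to 18.9) and 24.8 for Rasgrf2 (22.8 to 23.5). In the CeA of animal 6 it was 21.8 for Grin2a (20.1 to 20.7), 18.2 for Grin2c (18.9 to 19.2) and 16.2 for Hprt (14.9 to 15.4). In the CeA of animal 2 it was 11.4 for Clu (12.2 for all others). Animal 7 had the latest median C_T before normalization in both regions, 20.5 in DVC and 20.8 in CeA. Its part in these values was not tested. Without animal 7, 79 genes differed between the regions, 47 higher in DVC and 32 higher in CeA.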

How the results depend on the processing

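Normalization mattered most. Without it 102 genes differed, 95 higher in DVC and 7 higher in CeA, and 78 by at least 1 cycle. With each region quantile-normalized alone, 107 were higher in DVC and 9 higher in CeA, 79 of the 116 by at least 1 cycle. Both keep the later C_T of the CeA, and of the 80 genes 52 stayed called without normalization, in either direction. Signs that turned are given as CeA minus DVC in cycles. Without normalization these were Clu 0.89, Dnmt3a 0.80, Dusp6 0.35, Gabrg1 0.85, Gabrr2 0.0504, Grm5 0.0762, Homer2 0.18, Ntrk2 0.38, Pdpk1 0.85, Ptgs1 0.16, Ptpn1 0.36 and Rgs2 0.69, and Cckbr, Grin1, Grin2c, Junb, Plcb1, Rasa2 and Rasgrp4 lost their calls. With each region alone they were Clu 0.89, Dnmt3a 0.83, Dusp6 0.37, Gabrg1 0.79, Gad1 0.82, Grm5 0.0148, Homer2 0.20, Ntrk2 0.29, Pdpk1 0.71, Ptgs1 0.14, Ptpn1 0.36 and Rgs2 0.96, and Cckbr, Gabrr2, Grin2c, Junb, Plcb1 and Rasa2 lost their calls. Median centring gave 86 genes (52 higher in DVC, 34 in CeA), and centring within each inferred set of assays gave 95 (53 and 42) and turned Pdpk1 (0.0661). No label gives these sets, which were inferred from consecutive genes missing together in the partly measured CeA samples. With both kinds of centring, all 24 leading genes kept their calls. Of the other named genes, Gabrr2, Pdpk1 and Rgs2 lost theirs with median centring, and Crhr2, Grin2d, Mbd1, Pdpk1 and Rgs2 within the sets. Ndufa5 and Slc32a1 passed with the former alone, and Dnmt3a and Map2k1 with the latter alone.

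Without the animal as a block 76 genes differed (44 and 32), all among the 80, and of the named genes Cckbr and Rgs2 alone lost their calls. The exact sign-flip permutation test gave 57 (33 and 24), without Crhr2, Gabrr2, Grin2a, Grin2d, Junb, Mbd1, Pdpk1, Rasa2, Rasgrp4, Rgs2, Rgs6, Slc6a12 and Terf1 among the named genes, the methods' one-way ANOVA 75 and, after Benjamini-Hochberg adjustment, 70. A fit over all 72 samples gave 67, genes with all 14 values 71, genes with 2 or more animals 80, ZT3 samples normalized alone 80, and, chosen after seeing the data, the set without assays tied by the normalization 80. Leaving out each animal gave 72 to 80 genes, 41 to 47 higher in DVC, 30 to 35 higher in CeA, and 37 to 45 by at least 1 cycle. The tests of ZT3 against ZT5 and ZT9 gave 0 without the block, with median centring and with higher-numbered animals only, the alternatives run for them. The difference in median C_T was 0.999 cycles over genes with all values. The number of animals limits what could be detected.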
